A study of Homo sapiens with 4 samples.

Results

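The neural cell adhesion molecules described here are 9 genes, NCAM1, NCAM2, L1CAM, CHL1, NRCAM, NFASC, CNTN1, CNTN3 and NLGN1, read by gene name from 31907 names with a count in at least 1 library of HGC-27 cells. HGC-27 is an established human gastric cancer cell line. The series holds 4 RNA-seq libraries of adherent HGC-27 cells, all from this 1 line and all collected at 48 h: 2 libraries were labelled PBS, and 2 were labelled rIL-17B at 200 ng/ml, recombinant human interleukin-17B. Names not listed in a library were taken as 0 counts, and CPM is the count per 1e6 counts of that library. The labels do not say whether replicates were separate cultures, so the spread between them may be technical, and the library protocol in the labels speaks of monocytes although the cell line is given as HGC-27.

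These proteins hold the membranes of neighbouring cells together and pass signals inward, and they are best known from axon growth, nerve fascicles and synapses. NCAM1 and NCAM2 bind their like on the next cell through immunoglobulin and fibronectin domains, and NCAM1 is the main carrier of polysialic acid. L1CAM, CHL1, NRCAM and NFASC form the L1 family, whose cytoplasmic tails bind ankyrin and through it the spectrin skeleton. CNTN1 and CNTN3 are contactins, which lack a cytoplasmic part and are anchored by a lipid, and NLGN1 is a neuroligin, the postsynaptic partner of the neurexins. Outside the nervous system, L1CAM is a known protein of invasive carcinomas.

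The library totals lay between 12888029 and 17555879 counts, so that 3 counts, taken as the floor of what a library can show, equalled between 0.171 and 0.233 CPM. rIL-17B replicate 1 stood apart from the other libraries: 342 genes had at most 3 counts in it although each other library had at least 100, and the number of such genes was 0 in each of the other 3 libraries. NCAM1, NFASC and NLGN1 were among those 342 genes. Whether this library is of the labelled cell line and treatment could not be checked from the files, and every value for the rIL-17B group rests on its label. The results below are therefore given for each rIL-17B library by itself as well as for the group. All intervals are 95% intervals for counting error only and do not cover variation between libraries. Reads amplified from the same molecule were not collapsed, so the intervals may be too narrow even for counting error.

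Sequences just before a RefSeq start of L1CAM, NFASC, NRCAM and NLGN1 are shown because L1CAM was the member that was higher in both rIL-17B libraries while the other 3 were lower. RefSeq's promoter set (GRCh38.p14) held 8 of the 9 members, and NCAM1 was not matched. Each line gives the longest stretch within 250 bases before a RefSeq start that lies outside every annotated exon, 5′ to 3′ on the gene's strand. GC boxes, the letters GGGCGG on either strand, are in capitals. The stretches of L1CAM, NRCAM and NLGN1 lie inside the GENCODE 29 span of their gene, after its first annotated base. Only that of NFASC lies before its gene.
L1CAM, chrX:153876040-153876113, minus strand: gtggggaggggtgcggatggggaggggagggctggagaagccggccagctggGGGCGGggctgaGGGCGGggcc
NFASC, chr1:204828402-204828650, plus strand: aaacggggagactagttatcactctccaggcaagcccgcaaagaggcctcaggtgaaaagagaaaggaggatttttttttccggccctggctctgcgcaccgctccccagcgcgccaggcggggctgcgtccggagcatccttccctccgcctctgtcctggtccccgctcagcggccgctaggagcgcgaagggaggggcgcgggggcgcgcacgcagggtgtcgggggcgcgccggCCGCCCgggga
NRCAM, chr7:108456437-108456669, minus strand: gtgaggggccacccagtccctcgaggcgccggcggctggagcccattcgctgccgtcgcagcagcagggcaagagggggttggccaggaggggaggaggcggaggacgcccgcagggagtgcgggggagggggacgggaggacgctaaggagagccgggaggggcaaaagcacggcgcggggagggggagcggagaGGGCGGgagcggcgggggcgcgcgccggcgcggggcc
NLGN1, chr3:173397494-173397743, plus strand: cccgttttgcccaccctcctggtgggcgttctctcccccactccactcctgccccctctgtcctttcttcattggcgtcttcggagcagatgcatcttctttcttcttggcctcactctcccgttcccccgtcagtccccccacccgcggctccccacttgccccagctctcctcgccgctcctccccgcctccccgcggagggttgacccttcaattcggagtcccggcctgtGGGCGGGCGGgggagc
All 4 stretches held at least 1 GC box, which 42.6% of all 35116 RefSeq promoters hold within the same 250 bases. Over the full 250 bases, CG dinucleotides numbered 27 for NFASC, 29 for NRCAM and 17 for NLGN1, against a median of 11 over all promoters. The counts of these 3 genes hold for the starts shown: another RefSeq start of NFASC had 9, another 2 of NRCAM had 1 and 2, and another of NLGN1 had 19. The 2 RefSeq starts of L1CAM had 8 and 5, but 176 of the 250 bases were annotated exon at each. GENCODE 29 gives 16 starts for L1CAM, so these 2 do not stand for all of them. The other starts of NFASC and NRCAM held 0 GC boxes and that of NLGN1 held 2, and which start the cells used was not measured. The E-box CACCTG, read on both strands, is one form of the general E-box CANNTG, and 17.5% of all promoters hold it. It occurred once in the full 250 bases of NFASC and of NRCAM at the starts shown. It was absent at their other RefSeq starts and at every RefSeq start of L1CAM and NLGN1. The letters TTCAGCACC, a half-site of the neuronal repressor REST, were in none of these 4 windows and in 0.288% of all promoters. These matches are descriptions of letters and not of bound sites.

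In PBS-treated HGC-27 cells the 9 genes spanned a wide range of levels. L1CAM (ENSG00000198910.13, chromosome X, 153861514 to 153886174) was the most abundant, with 20.1 ± 0.383 counts per kilobase of exon and 1e6 counts (SD, n = 2 libraries), a level above that of 92.2% and 91.7% of the listed gene names in PBS replicates 1 and 2. On the same per-length scale NRCAM had 2.91 ± 0.191 and NFASC 2.61 ± 0.00590, each a small fraction of L1CAM. NLGN1 with 1.12 ± 0.131 and NCAM1 with 1.08 ± 0.268 overlapped between the PBS libraries and could not be ordered. The levels of NCAM2, CNTN1, CNTN3 and CHL1 were all under 0.1 on this scale, with 0.0737 for NCAM2, 0.0511 for CNTN1, 0.0228 for CNTN3 and 0.0171 for CHL1, and the last 2 overlapped. With the longest transcript as the length in place of all exons, an alternative chosen after seeing the data, L1CAM stayed first at 28.5 and 6 members moved in the order, NFASC passing NRCAM with 5.38 against 3.56.

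L1CAM was counted 2358 and 1860 times in PBS replicates 1 and 2, and 4844 and 3059 times in rIL-17B replicates 1 and 2. This equalled 148 and 144 CPM under PBS against 331 and 174 CPM under rIL-17B, so both rIL-17B libraries were above both PBS libraries, replicate 1 by far more than replicate 2. In rIL-17B replicate 1, the ratio to PBS was 2.24 (2.13 to 2.35) against PBS replicate 1 and 2.30 (2.18 to 2.42) against PBS replicate 2. In rIL-17B replicate 2, the ratios were 1.18 (1.11 to 1.24) and 1.21 (1.14 to 1.28), where the PBS libraries themselves differed by a ratio of 0.973 (0.916 to 1.03). Across all 4 libraries, the log2 fold change of L1CAM between rIL-17B and PBS was 0.70 with a standard error of 0.31 (adjusted p = 0.661 by edgeR), so it did not pass the threshold of 0.05.

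The other counted members of the L1 family lay on the opposite side. NFASC (neurofascin, an organizer of nodes of Ranvier; chromosome 1, 204828651 to 205022822) had 882 and 717 counts under PBS, 1 count in rIL-17B replicate 1 and 823 in replicate 2. Its level was 55.5 and 55.6 CPM in the PBS libraries, 0.0684 CPM in rIL-17B replicate 1 and 46.9 CPM in replicate 2. The PBS libraries were alike, rIL-17B replicate 2 was slightly below them, and replicate 1 had nearly no NFASC. Against PBS replicate 1, the ratio was 0.00123 (3.12e-05 to 0.00689) in rIL-17B replicate 1 and 0.845 (0.768 to 0.931) in replicate 2.

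NRCAM (chromosome 7, 108147623 to 108456717), which also takes part in building nodes and guiding axons, had 361 and 321 counts under PBS against 92 and 358 counts under rIL-17B. In CPM these were 22.7 and 24.9 under PBS, 6.29 in rIL-17B replicate 1 and 20.4 in replicate 2. NRCAM was thus lower in rIL-17B replicate 1 but still well above the floor, unlike NFASC. Its ratio to PBS replicate 1 was 0.277 (0.218 to 0.350) in rIL-17B replicate 1 and 0.898 (0.774 to 1.04) in replicate 2. CHL1 (chromosome 3, 196596 to 409417), the close homologue of L1CAM, had 4 and 2 counts under PBS and 0 and 2 under rIL-17B, at or near the floor in every library, and no difference was detectable at this depth.

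NCAM1 (chromosome 11, 112961247 to 113278436), the CD56 antigen, had 180 and 208 counts under PBS but 0 in rIL-17B replicate 1 and 151 in replicate 2. The levels were 11.3 and 16.1 CPM under PBS and 8.60 CPM in rIL-17B replicate 2. The 2 PBS libraries differed from each other by a ratio of 1.43 (1.16 to 1.75), the widest spread among the 5 members tested. In rIL-17B replicate 1, where 3 counts would equal 0.205 CPM, NCAM1 was at least 55.1-fold lower than in PBS replicate 1 and at least 78.6-fold lower than in PBS replicate 2, with the floor taken per library and the PBS count as measured. The exact intervals, which also cover the counting error of the PBS library, ended at ratios of 0.0225 and 0.0158. In rIL-17B replicate 2, the ratio was 0.760 (0.608 to 0.949) against PBS replicate 1 and 0.533 (0.429 to 0.660) against PBS replicate 2.

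NLGN1 (chromosome 3, 173396284 to 174286644), the neuroligin, had 165 and 158 counts under PBS and 0 and 107 under rIL-17B. That was 10.4 and 12.3 CPM under PBS and 6.09 CPM in rIL-17B replicate 2. Both rIL-17B libraries were below both PBS libraries, and no read was counted in replicate 1. NLGN1 was at least 50.5-fold lower in rIL-17B replicate 1 than in PBS replicate 1, and at least 59.7-fold lower than in PBS replicate 2, by the same floor, and the exact intervals ended at ratios of 0.0246 and 0.0208. In rIL-17B replicate 2, the ratio was 0.587 (0.456 to 0.754) and 0.497 (0.385 to 0.639) against the PBS libraries, the largest decrease in that library among the 5 tested members.

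The remaining 3 members were close to the limit of detection. NCAM2 (chromosome 21, 20998315 to 21543329), the olfactory relative of NCAM1, had 11 and 7 counts under PBS and 0 and 8 under rIL-17B. The exact interval of its ratio in rIL-17B replicate 1 ended at 0.434 against PBS replicate 1 and at 0.612 against PBS replicate 2. CNTN1 (chromosome 12, 40692442 to 41072418), a partner of NFASC at the paranode, had 6 and 5 counts under PBS and 0 and 3 under rIL-17B. CNTN3 (chromosome 3, 74262568 to 74521140) was counted 0 and 3 times under PBS and 0 and 1 times with rIL-17B, so that no library exceeded the floor.

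**Figure D1:**
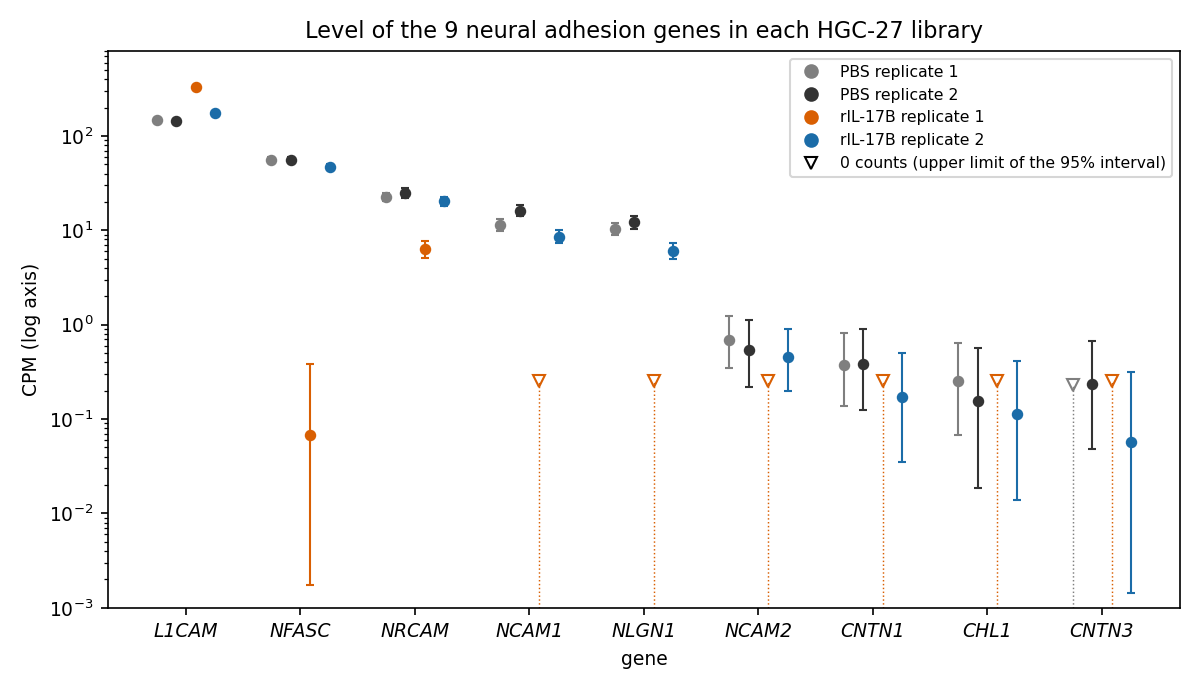
CPM of each gene (log axis) in the 4 libraries, with 95% counting intervals; open triangles mark libraries with 0 counts at the upper limit of the interval, and levels are to be compared within a gene. For NCAM1, NLGN1, NFASC and NRCAM, rIL-17B replicate 1 lies far below the other 3 libraries, while for L1CAM it lies above them at 331 CPM.

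The make-up of the family changed accordingly. The 9 genes together had 249 and 255 CPM in the PBS libraries, 338 CPM in rIL-17B replicate 1 and 257 CPM in replicate 2, so that the sum did not fall where most members did. L1CAM took 59.4% (57.9 to 60.97, Clopper-Pearson interval) and 56.7% (55.0 to 58.4) of their counts in PBS replicates 1 and 2. Its share was 98.1% (97.7 to 98.5) in rIL-17B replicate 1 and 67.8% (66.4 to 69.2) in replicate 2. Per exon length, which allows genes to be compared, L1CAM made up 73.3% and 70.5% of the 9 genes under PBS and 98.3% and 79.8% with rIL-17B. Of the 9 genes, 8 and 9 were listed in PBS replicates 1 and 2, 3 in rIL-17B replicate 1 and 9 in replicate 2.

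Between rIL-17B and PBS as groups, edgeR's quasi-likelihood test over 16361 genes called 0 genes at an adjusted p under 0.05, a background of 0%, and 0 of the 5 members tested. Without adjustment, 226 genes had p under 0.05, or 1.38% of those tested, and for 0 members, while DESeq2 called 0 genes at an adjusted p under 0.05 and gave 457 genes, L1CAM among them, an unadjusted p under 0.05. The 5 members that passed the filter on low counts were L1CAM, NFASC, NRCAM, NCAM1 and NLGN1. NCAM2, CHL1, CNTN1 and CNTN3 were not tested. The log2 fold changes were -1.67 for NCAM1 (standard error 2.08), -1.25 for NFASC (2.09), -1.89 for NLGN1 (2.02) and -0.87 for NRCAM (0.67), and edgeR gave adjusted p between 0.661 and 0.765. Their median with L1CAM was -1.25, beside -0.03 over all tested genes. The standard errors exceeded the fold changes for NCAM1, NFASC and NLGN1, whose 2 rIL-17B libraries were far apart, so a count of 0 does not show that the groups were alike.

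Read library by library, 5 of the 9 members, NCAM1, NCAM2, NRCAM, NFASC and NLGN1, were at least 2-fold lower in rIL-17B replicate 1 than in both PBS libraries after 0.5 CPM was added to each value. That level was reached by 17.1% of the tested genes and 9.09% of all listed names, and NCAM2 reached it on 11 and 7 PBS counts. L1CAM was at least 2-fold higher in that library, as were 1.57% of the tested genes. In rIL-17B replicate 2, 0 of the 9 members were 2-fold lower or higher, where 0.134% of tested genes were lower and 0.0244% higher. Both rIL-17B libraries lay below both PBS libraries in CPM for 4 of the 5 tested members, for which the background was 27.5% of tested genes, and above both for L1CAM, for which it was 31.5%. The untested NCAM2, CHL1 and CNTN1 also lay below, on at most 11 counts and, for CHL1, on 2 counts in rIL-17B replicate 2 and in PBS replicate 2 alike. These comparisons have 1 rIL-17B library at a time and carry no replicate check.

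Leaving out rIL-17B replicate 1, edgeR compared rIL-17B replicate 2 with the PBS libraries, with the lone library assumed to vary as the PBS libraries did. It then called 2.95% of 17103 genes at an adjusted p under 0.05, and 2 of the 6 members that passed its filter. These 2 were NLGN1, with a log2 fold change of -0.89 (SE 0.21), and NCAM1, with -0.67 (SE 0.19). The spread between the PBS libraries, which may be technical, does not measure how treated cultures vary. The 2 calls therefore do not rest on replicates of the treatment. The log2 fold change in this fit was 0.25 for L1CAM, -0.25 for NFASC, -0.22 for NRCAM and -0.45 for NCAM2, none of them called. Leaving out rIL-17B replicate 2 instead, all 6 members that passed were called, L1CAM higher and the other 5 lower, but 55.1% of the 17223 genes tested were called as well. Each of the 5 members tested in all 3 fits had the same sign in them.

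Markers of cell types were read beside these values. The 8 mesenchymal markers summed to 51414 and 50396 CPM under PBS, 978 CPM in rIL-17B replicate 1 and 42990 CPM in replicate 2. All 8 had over 3 counts in every library, and all 8 were at least 2-fold lower in rIL-17B replicate 1 than under PBS. Outside that library most of the sum was FN1, with 33131 and 32458 CPM under PBS against 149 and 27450 CPM under rIL-17B. The fall was smaller for VIM, with 727 and 706 against 280 and 615 CPM, and for THY1, with 72.1 and 80.0 against 30.0 and 63.0 CPM. The 8 epithelial markers summed to 805 and 815 CPM under PBS, 1859 and 1032 CPM under rIL-17B, with TFF1 at 0 throughout and CDH1 at 7 to 11 counts. Most of that sum was KRT8, with 601 and 611 CPM under PBS against 1457 and 787 CPM under rIL-17B, and KRT18, with 169 and 165 against 355 and 207 CPM. KRT19 went the other way in rIL-17B replicate 1, with 1 count there against 43 to 58 in the other libraries, and CLDN4 had 6.73 and 8.38 CPM under PBS against 6.64 and 5.92 CPM under rIL-17B. The 8 neuronal markers summed to 109 and 120 CPM under PBS against 57.6 and 91.8 CPM under rIL-17B. Of these, MAP2 had 57.3 and 77.2 against 31.5 and 44.3 CPM, and STMN2 had 21.6 and 13.6 against 0 and 18.1 CPM. SNAP25 did not fall, with 22.8 and 22.9 against 24.9 and 23.1 CPM. The neuroendocrine set of 5 summed to 64.4 and 66.2 against 12.2 and 51.5 CPM. Most of that was ENO2, with 55.8 and 57.0 against 11.0 and 45.7 CPM, while CHGA and INSM1 had at most 5 counts in any library. The Schwann or oligodendrocyte set of 7 summed to 111 and 166 against 30.0 and 83.3 CPM. SOX10 was at 0 in all 4 libraries, and OLIG1 and OLIG2 were at 0 in rIL-17B replicate 1, where the sum of that set was nearly all MBP, at 29.4 CPM against 19.2 and 16.99 CPM under PBS. The 6 monocyte markers summed to 9.62 and 10.1 CPM under PBS against 8.42 and 10.3 CPM under rIL-17B, with 4 of the 6 at 0 in rIL-17B replicate 1, where CSF1R alone had 8.14 CPM against 3.90 and 5.59 CPM under PBS. The part of these differences between libraries in the values of the adhesion genes was not tested, and in bulk RNA fewer cells of a type and less RNA per cell cannot be told apart.

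Genes that work with the 9 members were read from 6 lists of 76 genes in all, of which 59 were tested. None was called in edgeR's quasi-likelihood test, and none had an unadjusted p under 0.05. Of the 59, 25 were at least 2-fold lower in rIL-17B replicate 1 than in both PBS libraries and 1 was 2-fold higher, beside 17.1% and 1.57% of all tested genes, while 0 were 2-fold apart in replicate 2. The list counts below stand beside the same shares. The genes named below are the 3 of each list with the highest mean CPM.

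Neurexins, neuroligins and their synaptic partners had 8 tested genes, whose median log2 fold change was -1.31, with 6 of the 8 at least 2-fold lower in rIL-17B replicate 1 and 7 of the 8 without overlap between the groups, rIL-17B being lower, as it was for 27.5% of all tested genes. NLGN2, the neuroligin of inhibitory synapses, had 86.6 and 98.4 CPM under PBS against 79.5 and 86.7 CPM under rIL-17B. DLG4, the PSD-95 scaffold that binds neuroligins, had 27.5 and 32.4 CPM under PBS against 12.9 and 26.1 CPM under rIL-17B. MDGA1, which masks neuroligins from neurexins, had 13.2 and 14.0 CPM under PBS against 1.03 and 8.32 CPM under rIL-17B. NLGN2 thus kept most of its PBS level in rIL-17B replicate 1, where NLGN1 had 0 counts.

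The contactin and CASPR relatives had a median of -0.29 over 6 tested genes, with 1 of the 6 at least 2-fold lower in rIL-17B replicate 1. CNTNAP1, the CASPR protein that pairs with CNTN1, had 43.4 and 48.3 CPM under PBS against 23.5 and 39.1 CPM under rIL-17B. CNTNAP3 had 5.28 and 6.05 CPM under PBS against 2.94 and 3.82 CPM under rIL-17B, counts that are uncertain because the gene has near-identical copies. CNTNAP4 lay on the other side, with 4.65 and 4.35 CPM under PBS against 8.83 and 6.04 CPM under rIL-17B. Other immunoglobulin adhesion genes had a median of -0.57 over 12 tested genes, 5 of them at least 2-fold lower in rIL-17B replicate 1. BSG (basigin) had 841 and 910 CPM under PBS against 1188 and 937 CPM under rIL-17B. MCAM, the CD146 adhesion molecule, had 333 and 325 CPM under PBS against 575 and 381 CPM under rIL-17B. The log2 fold change of MCAM was 0.46 (SE 0.20, edgeR adjusted p = 0.661). NPTN (neuroplastin) had 165 and 157 CPM under PBS against 176 and 166 CPM under rIL-17B. BSG, MCAM and NPTN were above both PBS libraries in both rIL-17B libraries, BSG and NPTN only slightly so in replicate 2. In this list 3 of the 12 tested genes lay above without overlap and 8 below, beside 31.5% and 27.5% of all tested genes.

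The ankyrin, spectrin and ERM linkers, which tie L1 family tails to the cell cortex, had a median of 0.14 over 12 tested genes. Of these, rIL-17B was above PBS without overlap for 6 and below it for 3, beside 31.5% and 27.5% of all tested genes, and 2 were at least 2-fold lower in rIL-17B replicate 1. MSN (moesin) had 624 and 632 CPM under PBS against 761 and 643 CPM under rIL-17B. SPTBN1 and SPTAN1, the spectrin chains beneath ankyrin, had 519 and 561 and 498 and 520 CPM under PBS. With rIL-17B, SPTBN1 had 764 and 555 CPM and SPTAN1 769 and 528 CPM.

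Among cell surface partners, the median was -0.66 over 14 tested genes, 7 of which were at least 2-fold lower and 1 at least 2-fold higher in rIL-17B replicate 1. ITGB1 and ITGAV are integrin subunits to which L1CAM binds. ITGB1 had 1425 and 1341 CPM under PBS against 583 and 1279 CPM under rIL-17B, and ITGAV had 441 and 418 CPM under PBS against 241 and 389 CPM under rIL-17B. AGRN (agrin) had 291 and 334 CPM under PBS against 381 and 301 CPM under rIL-17B. Glycan enzymes and sheddases had a median of -0.74 over 7 tested genes, with 4 at least 2-fold lower in rIL-17B replicate 1. ADAM10, the protease that releases the L1CAM ectodomain, had 162 and 162 CPM under PBS against 108 and 161 CPM under rIL-17B. BACE1, which cleaves CHL1, had 103 and 91.9 CPM under PBS against 37.8 and 82.9 CPM under rIL-17B. ADAM17 had 50.3 and 50.05 CPM under PBS against 44.8 and 53.4 CPM under rIL-17B.

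The use of strand in counting is not given in the sources used here, so reads from overlapping genes could not be told apart. By GENCODE 29, exons of L1CAM overlap those of LCA10 on the other strand (1 to 6 counts per library). They also share 439 bases with U52112.1 on the same strand, a name listed in no library. Exons of NCAM1 overlap those of AP000802.1 (1 to 8 counts) and NCAM1-AS1 (0 to 4 counts). These counts are small beside those of L1CAM and of NCAM1 in the libraries where NCAM1 was counted. NFASC and NLGN1 shared no exon with another counted gene, and NRCAM overlapped no annotated gene.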

How the data were processed

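RNA-seq of 4 HGC-27 libraries was analysed, 2 per treatment, grouped by the treatment label. The authors deposited raw counts, the reads counted per gene name in each library, with names at 0 left out. The submitters' processing notes name build hg38, HISAT2 2.1.0, Bowtie2 2.2.3, TopHat2 and HTSeq 0.6.0, with no role or order; the annotation and strand setting are not given in the sources used here. Libraries were made by Smart-seq2 from an oligo-dT primer with PCR, without molecular identifiers.

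Between 83 and 98 names per library that were listed repeatedly with the same count were used once, and 22 to 25 entries turned into spreadsheet dates were dropped. Counts were fitted with edgeR 4.0.16 in R 4.3.3 (TMM factors 0.97 to 1.07, filterByExpr, quasi-likelihood test, Benjamini-Hochberg over 16361 genes, threshold 0.05). The fit was also tried on simulated counts. Changes of a fixed size were planted in well-counted genes, alike in both rIL-17B libraries, with a common spread for all genes. The fit found all of these planted changes at the spread of the PBS libraries. It missed most of them at the spread within the groups of these 4 libraries. The simulation did not copy a library that stands apart, so it does not give the power of the fit for these data. The standard error is the log2 fold change divided by the square root of F. CPM uses library totals without TMM. Count intervals are exact Poisson, and ratio intervals are exact and conditional on the summed counts. Exon lengths and coordinates are from GENCODE 29 on GRCh38, where 97.8% of names matched once. DESeq2 1.42.0, other normalizations and filters, a replicate block and leaving out each library were alternatives.

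All 9 members were named, and of each related list the 3 genes with the highest mean CPM. The members, lists and tests were chosen with earlier results of these data known. One gene of the neuroendocrine markers is not reported here. With 2 libraries per group, no exact permutation test of single genes was made.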

Additional observations from a re-analysis of the deposited data

How the results depend on the processing

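The count of 0 genes, and of 0 members, past the adjusted p threshold was the same with upper-quartile normalization, with every listed gene tested, with a minimum of 10 counts in each library, at a looser threshold of 0.1 and with DESeq2. Leaving out 1 library at a time gave between 0 and 9489 genes and between 0 and 6 members. The counts were 504 genes and 2 members without rIL-17B replicate 1 and 9489 genes and 6 members without rIL-17B replicate 2, since the spread of these fits came from the PBS libraries alone. The median log2 fold change of the tested members, -1.25 over 5, was -1.62 over all 9 without the filter and -0.12 over the 2 members with at least 10 counts everywhere, L1CAM and NRCAM, and between -7.93 and -0.35 when 1 library was left out. In every setting in which they were tested, L1CAM was higher and NCAM1, NFASC, NLGN1 and NRCAM lower with rIL-17B. Both rIL-17B libraries lay on that side of both PBS libraries in CPM, so the shared sign of these refits adds no support.

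In the fit with a replicate block, 0 genes were called and the median of the tested members was -3.58; the cause was not tested. The deviations of same-numbered libraries from the means of their groups had a correlation of 0.08 over 16361 genes. Since rIL-17B replicate 1 stood far apart, this value cannot show whether same-numbered libraries were paired. The labels say nothing of a shared batch.

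Of the members, 5 were 2-fold lower in rIL-17B replicate 1 and 0 in replicate 2. In replicate 1 the number was 7 with no CPM added and 4 with 1 CPM added. Without 0.5 CPM added, 1 was lower in replicate 2, CNTN1, which had 3 counts there. Depth limits NCAM2, CHL1, CNTN1 and CNTN3, whose counts never exceeded 11 per library.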
